A study of Homo sapiens with 6 samples.

Results

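ATAC-seq peaks that ranked high in both R1 libraries and overlapped no high-ranking peak of naïve or R2 cells numbered 511. They are called R1-only regions here for short, although 277 of them overlapped a lower-ranking peak in at least 1 naïve or R2 library. They were chosen by rank: each was among the top 20000 peaks of the first R1 library by p-value and overlapped a top 20000 peak of the second R1 library. None overlapped a peak among the top 50000 of any of the other 4 libraries, and chromosomes 1 to 22 were used. The first condition was met by 17486 of the 340558 peaks in the first R1 library, and these are called shared R1 peaks, so R1-only regions were 2.92% of them. All 6 lists together held 1044250 peaks. The same rule with the cell types exchanged gave 110 naïve-only regions, 0.775% of 14197 shared naïve peaks, and 133 R2-only regions, 0.972% of 13679 shared R2 peaks. The libraries differed in depth, and rank 50000 stood for a lower peak over background in R1 than in the others. The rule was therefore not equally strict for each cell type, and these counts are not alike. Without the second R1 library there were 901 R1-only regions. Without the first R2 library there were 791, and without the second 818.

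SKNAS is a human neuroblastoma cell line, and indisulam is a sulfonamide that directs the splicing factor RBM39 to degradation through the ligase adaptor DCAF15. SKNAS xenografts grew in mice that received vehicle or indisulam. Naïve cells were cultured from vehicle-treated xenografts, while R1 and R2 cells came from xenografts that had become resistant, taken at their second relapse during the third indisulam cycle. The labels give no treatment of the cultured cells. Each cell type had 2 libraries of 100000 cells, 6 in all. By the methods there were 3 tumors each from vehicle and resistant animals, and it is not stated whether the libraries of a cell type were separate cultures. Values may therefore show technical spread only, and dissociated xenografts can carry mouse host cells into culture. With 2 libraries against 4, an exact permutation test cannot give a p below 0.0667, so no test between cell types is given.

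ATAC-seq cuts and tags open chromatin with the Tn5 transposase, and its peaks mark promoters and distal elements such as enhancers. Distal elements are often open in some cell states and closed in others, and transcription factors bind short sequence motifs within them. Factors of the basic helix-loop-helix family, which include HAND2 and TWIST1 in neural crest tumors, bind E-boxes, whose letters are CANNTG. AP-1 factors of the FOS and JUN families bind TGANTCA and act in growth, stress and mesenchymal cell states.

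The sequences around 10 summits are shown first, because the E-boxes in them recur through the R1-only regions. The summits were picked, so the E-box forms CAGCTG and CATCTG are more frequent here than in all 511 regions, where the share was 45.8%. Among best-ranked, promoter and listed-gene summits left out, LEF1, ANK2, SCCPDH, MYO6, ANKRD6, C4orf19 and GLB1L2 had neither form within 50 bp. The promoter summits of NELL2, MPPED2, RBM11, CAP2 and CDC37L1 were also left out and are not sorted here. KCNK9, ZBTB14, HLX, HOXA2 and SPARC, also left out, had at least 1. The summit is the point of highest pileup, which is the number of overlapping tags. ADA2, NR4A2 and NPTX2 are among the 10 best-ranked regions, HAND2, IGF1R, TEAD1, BCL2, BCL2L1 and ALK are distal regions nearest to genes of interest in neuroblastoma, and TRIM2, like NPTX2, is at a promoter. Each line gives 121 bp centred on a summit, on the plus strand of hg38, with the nearest protein-coding gene as its name. Capitals mark matches within 50 bp of the summit to the motifs searched, except the short motifs NFY and NFI and the general E-box CANNTG. Those matches, and all letters farther out, stay in lower case. In ADA2, NR4A2, IGF1R and BCL2L1 the capitals are CAGCTG, in TEAD1 they are CATCTG read as CAGATG on the other strand, and in BCL2 both forms stand side by side. HAND2 has CATCTG read as CAGATG with a GATA and a RUNX match, TRIM2 has CAGCTG and an AP-1 match, NPTX2 has SP/KLF matches, and ALK has no capitals.
ADA2, chr22:17266756-17266876, plus strand: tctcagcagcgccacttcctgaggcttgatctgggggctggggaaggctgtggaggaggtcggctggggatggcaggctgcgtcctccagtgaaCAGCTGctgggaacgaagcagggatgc
NR4A2, chr2:155748238-155748358, plus strand: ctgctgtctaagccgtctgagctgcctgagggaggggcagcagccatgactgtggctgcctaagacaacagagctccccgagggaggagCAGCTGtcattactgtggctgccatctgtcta
HAND2, chr4:173648005-173648125, plus strand: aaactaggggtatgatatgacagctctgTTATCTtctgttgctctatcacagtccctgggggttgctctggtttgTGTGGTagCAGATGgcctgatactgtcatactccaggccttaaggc
IGF1R, chr15:98785925-98786045, plus strand: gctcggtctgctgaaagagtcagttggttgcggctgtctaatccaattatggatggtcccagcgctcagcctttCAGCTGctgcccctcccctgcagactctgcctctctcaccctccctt
TEAD1, chr11:12789604-12789724, plus strand: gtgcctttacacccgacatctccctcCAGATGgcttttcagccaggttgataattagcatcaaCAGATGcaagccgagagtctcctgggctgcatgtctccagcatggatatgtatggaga
BCL2, chr18:63272116-63272236, plus strand: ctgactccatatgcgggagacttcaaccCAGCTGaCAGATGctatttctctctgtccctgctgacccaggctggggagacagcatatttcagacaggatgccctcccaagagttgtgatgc
BCL2L1, chr20:31694023-31694143, plus strand: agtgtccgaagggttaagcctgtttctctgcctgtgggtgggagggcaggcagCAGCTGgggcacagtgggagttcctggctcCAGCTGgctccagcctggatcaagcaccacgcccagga
TRIM2, chr4:153257190-153257310, plus strand: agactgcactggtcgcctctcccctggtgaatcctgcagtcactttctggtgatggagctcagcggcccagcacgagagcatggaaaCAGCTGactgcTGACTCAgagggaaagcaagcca
NPTX2, chr7:98617131-98617251, plus strand: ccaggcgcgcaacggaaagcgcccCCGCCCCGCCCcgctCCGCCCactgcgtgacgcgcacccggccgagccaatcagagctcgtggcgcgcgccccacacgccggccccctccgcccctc
ALK, chr2:29613911-29614031, plus strand: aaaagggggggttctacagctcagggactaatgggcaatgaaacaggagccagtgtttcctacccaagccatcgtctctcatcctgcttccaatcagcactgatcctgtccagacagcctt

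The libraries differed in depth. The background rate recovered from the lists was 7.94 and 5.43 tags in the R1 libraries, 2.29 and 1.35 in the naïve libraries, and 0.850 and 0.899 in the R2 libraries. A height is therefore given here as the pileup divided by the library's background rate. The lowest height called as a peak was 2.27 and 2.58 in R1, 3.93 and 5.18 in naïve, and 7.06 and 6.68 in R2, so a region with no peak in R2 may still have been open below those levels. The lowest R1 height that the rule let through, 10.6, lies above these levels. The height at rank 50000, however, was 6.55 and 6.81 in R1, 7.43 and 8.88 in naïve, and 10.6 and 10.0 in R2. Scaled to the background rate of the first R2 library, R1-only heights of the first R1 library came to 8.99 tags at the lowest and 10.8 at the median. In that R2 library 9 tags stood at rank 50000 and 6 was the lowest called. The part of counting error at so few tags was not tested. Of the shared R1 peaks, 878 and 1317 had no peak in the naïve libraries and 1419 and 1189 had none in the R2 libraries. Those that were called had median heights of 17.4 and 16.9 in R1, 13.6 and 15.5 in naïve, and 18.8 and 17.8 in R2. These medians leave out whatever lay below the lowest height called in each library. Height is on the linear scale in every library.

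R1-only regions were of moderate height in R1. Their height had a median of 12.7 in the first R1 library, with a range of 10.6 to 25.3, and a median of 12.3 in the second, with a range of 10.7 to 22.3. The R1 libraries gave heights within 1.5 times of each other at 508 of the 511 regions, with a Spearman correlation of 0.489 across regions, which share both libraries. Of the shared R1 peaks ranked 1 to 5000 in the first R1 library, 1 of 4946 was R1-only, or 0.0202%. The share was 0.735% past rank 5000 and up to 10000, 4.78% past 10000 and up to 15000, and 8.33% past 15000 and up to 20000. These values follow from the ranks that chose the regions and are given as a description.

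A weaker peak was present in at least 1 of the other libraries at 277 of these regions. In naïve cells, 169 of them had a weaker peak in the first library and 122 in the second. In R2 cells the counts were 76 and 103. Where a peak was present, its median height was 6.12 and 7.40 in naïve and 9.41 and 8.90 in R2, levels that the rule kept low. The remaining 234 regions, or 45.8%, overlapped no peak of any size in the other 4 libraries, and 12 had a peak in all 4. Without the second R1 library, 473 regions had no peak in the other lists, and without the second R2 library 376. A peak was present in naïve and not R2 cells at 122 regions, in R2 and not naïve cells at 58, and in both at 97. By the rule these peaks lay past rank 50000, in lists of 154926 and 115694 peaks for naïve and 67558 and 73484 for R2. Fewer R2 peaks could thus be found, and the naïve and R2 counts are not alike.

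**Figure D1:**
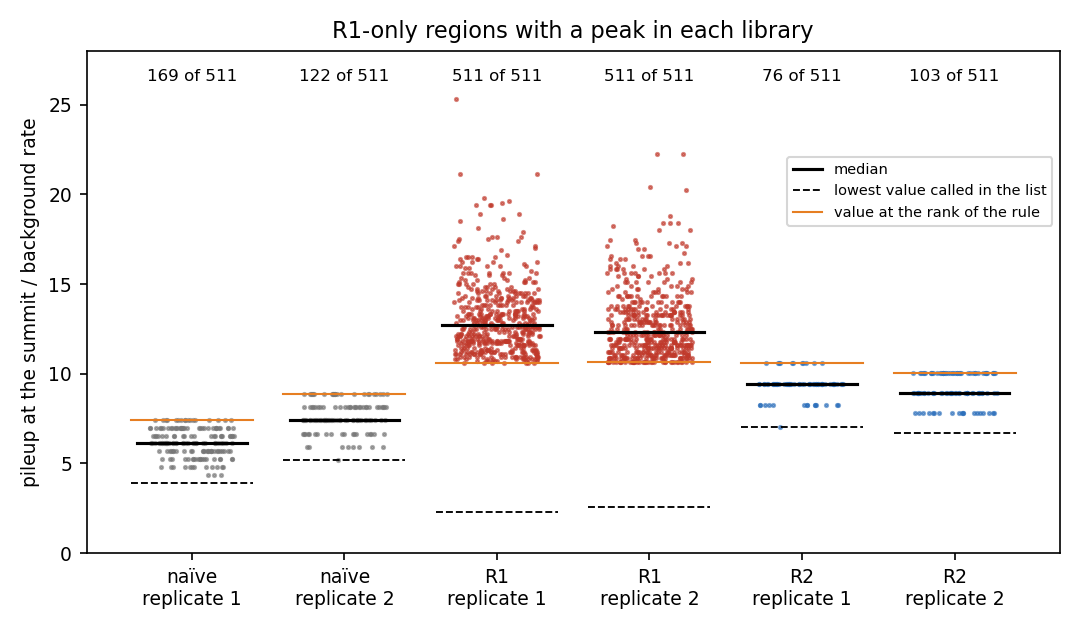
Height of the R1-only regions that had a peak in each library, as pileup over background rate on a linear axis. Each point is a region, the black line is the median, the dashed line is the lowest height called, and the orange line is the height at the rank used by the rule; counts of regions with a peak stand above. All 511 regions had an R1 peak at 10.6 or higher, against at most 169 in another library, where the rule held them at or below the orange line.

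The ranks at the thresholds were close together in height. The 3 regions just inside the first R1 threshold had ranks of 19964, 19966 and 19988 and a height of 10.6 each, and the 3 just outside had ranks of 20063, 20068 and 20085 and the same height. For the second R1 library the ranks inside were 19971, 19980 and 19983 at a height of 10.7. The ranks outside were 20014, 20034 and 20097, at 10.7, 10.5 and 10.5. In the other libraries, the best ranks inside were 50139, 50157 and 50183 in the first R2 library, near HOXA2, SCRN1 and ADCYAP1R1. Those just outside were 49738, 49741 and 49761, near KLHL32, PRDM13 and ARID1B, and all 6 had a height of 10.6. Which peaks fell inside was thus set in part by tied p-values, since many peaks of the R2 libraries share a pileup and tied peaks were ordered by chromosome name. With every tied peak counted inside a threshold there were 437 regions, of which 425 were among the 511.

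The region with the best mean rank in the R1 libraries lay at chr22:17265640-17267417, within 1000 bp of the start of the lncRNA CECR3 and 8581 bp upstream of ADA2, an extracellular adenosine deaminase. Its height was 25.3 and 22.3 in R1, 5.25 in the first naïve library and 7.79 in the second R2 library, with no peak in the others. The next lay 187138 bp upstream of LEF1, a transcription factor of the Wnt pathway, at chr4:108355905-108356299. It had heights of 21.2 and 22.3 in R1 and 10.0 in the second R2 library, and no peak in the first R2 library or either naïve one. The third lay 173530 bp downstream of the start of KCNK9, a background potassium channel, with heights of 21.2 and 20.4 in R1 and no peak elsewhere. Those 42417 bp upstream of SCCPDH, at a lncRNA start, near MYO6, which encodes an unconventional myosin, and near ZBTB14, a zinc finger factor, also had peaks in R1 alone.

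An intron of ANK2, the cytoskeletal adaptor ankyrin-B, held the fourth region, with heights of 19.6 and 18.2 in R1 and 10.0 in the second R2 library. The region nearest to NR4A2, an orphan nuclear receptor of dopaminergic neurons, lay 580117 bp downstream of its start and had heights of 19.8 and 16.2 in R1 and 8.90 in the second R2 library. The region nearest to HLX, a homeobox factor, had heights of 16.5 and 18.4 in R1 and 8.14 in the second naïve library. In each of these regions both R1 heights lay above every height called in the other 4 libraries. The rule chose them by rank within each library, so this is a description.

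**Figure D2:**
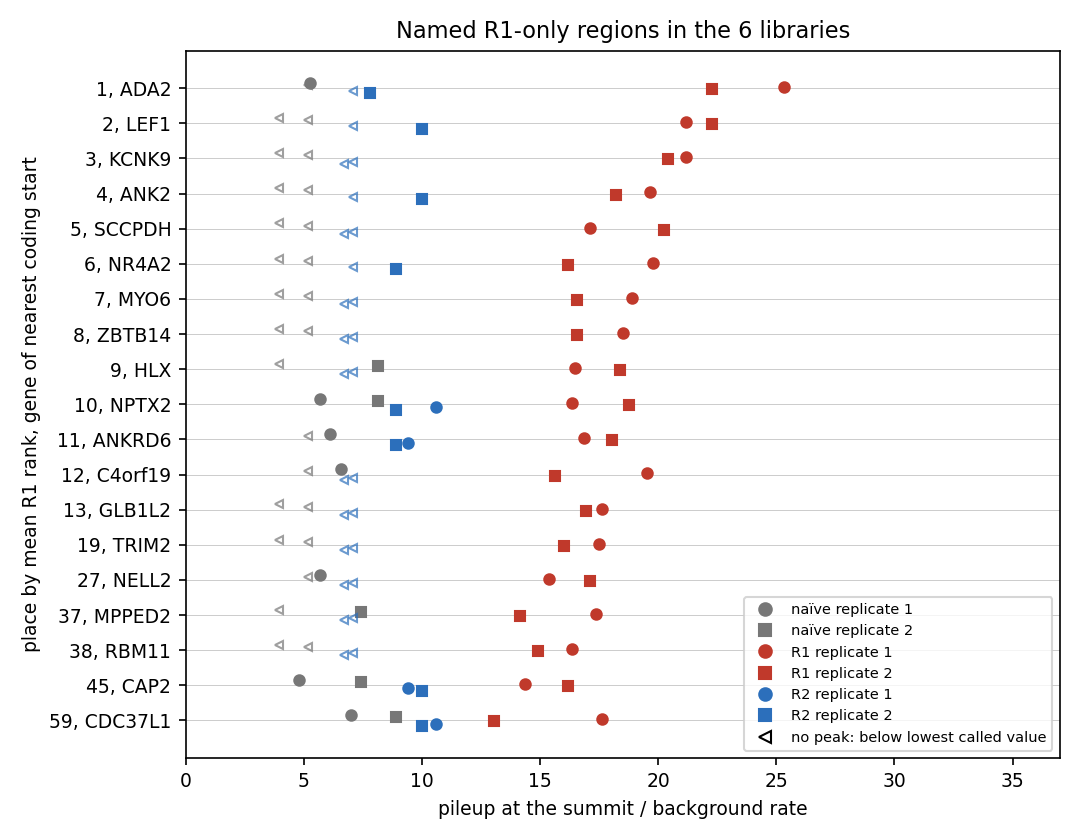
Height, as pileup over background rate on a linear axis, of the 10 regions with the best mean rank and the 10 best at a protein-coding start, 19 in all since NPTX2 is in both. Circles and squares are the first and second library of each cell type, and open triangles mark the lowest height called where a library had no peak. R1 libraries ranged from 13.1 to 25.3, and no peak of another library was above 10.6.

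Of the R1-only regions, 105 had their summit within 1000 bp of a protein-coding start. The best of these was at NPTX2, a neuronal pentraxin of synapses, with heights of 16.4 and 18.8 in R1, 5.68 and 8.14 in naïve, and 10.6 and 8.90 in R2. All 6 libraries had a peak there, so that this promoter was not absent in the other cells. A weaker rank in those cells is what the rule asked for, and the R2 peaks rested on 9 and 8 tags. ANKRD6, which acts in Wnt signalling, had heights of 16.9 and 18.0 in R1, 6.12 in the first naïve library and 9.41 and 8.90 in R2. CAP2, an actin regulator, and CDC37L1, a relative of the chaperone partner CDC37, had a peak in all 6 libraries too. In contrast, the starts of GLB1L2, TRIM2 and RBM11 had peaks in R1 alone. TRIM2, a neuronal ubiquitin ligase, had heights of 17.5 and 16.0, and RBM11, a splicing regulator of brain, had 16.4 and 14.9. C4orf19 and NELL2, a secreted neural glycoprotein, had a weaker peak in the first naïve library, at 6.56 and 5.68. MPPED2, a phosphoesterase, had one in the second, at 7.40.

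E-boxes were common at the summits. A CANNTG match lay within 50 bp of the summit in 318 of 511 regions, or 62.2% (Wilson 95% interval 58.0 to 66.3), against 33.9% of the 16975 other shared R1 peaks. More of the other shared R1 peaks lay near starts, where the match was less frequent. Within 1000 bp of a start the shares were 39.6% against 26.6%, and farther away 70.3% against 48.3%. The most frequent forms were CAGCTG and CATCTG, both searched on either strand and both contained in CANNTG. Away from starts, that is over 1000 bp from any annotated start, CAGCTG lay in 112 of 377 R1-only regions, or 29.7%, against 15.2% of 5673 other shared R1 peaks. CATCTG lay in 118 of them, or 31.3%, against 14.0%. At least one of these forms lay in 197 regions, or 52.3% (47.2 to 57.2), against 26.6% (25.4 to 27.7). At least 2 such matches lay in 14.9%, against 5.15%. An excess was not limited to these forms. CACATG lay in 11.1%, against 5.36%, CATATG in 6.90%, against 1.08%, and CAAATG in 5.31%, against 2.79%. CAACTG lay in 4.51%, against 3.28%, and CACGTG, the form that MYC binds, in 3.18%, against 2.89%. Lower shares were seen for CACCTG, with 10.6% against 14.4%, CAAGTG, with 3.45% against 3.79%, and CAATTG, with 0 against 0.317%. These forms were looked at after the data were seen, the regions are not replicates, and intervals cover counting error only, so the differences were not tested.

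The E-box pair was also found in R1-only regions at starts and in those with no peak elsewhere. Within 1000 bp of a start, CAGCTG or CATCTG lay in 37 of 134 R1-only regions, or 27.6%, against 10.3% of other shared R1 peaks near starts. Among regions with no peak in the other 4 libraries it lay in 51.3%, and among those with a peak in at least 1 of them in 41.2%. By rank in the first R1 library the share was 43.2% up to rank 10000, 49.3% past it and up to 15000, and 43.1% past 15000. GC content and width differed between R1-only regions and other shared peaks, so both were held to the middle range of the R1-only regions away from starts, a GC of 45.7% to 55.5% and a width of 395 to 922 bp, past rank 10000. There the pair lay in 65 of 108 R1-only regions, or 60.2%, and in 150 of 466 other shared peaks, or 32.2%. Naïve-only regions away from starts held it in 27 of 90, or 30.0% (21.5 to 40.1), beside 20.1% of all shared naïve peaks away from starts. R2-only regions held it in 12 of 121, or 9.92% (5.76 to 16.5), beside 895 of the 4702 shared R2 peaks away from starts.

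The matches were concentrated close to the summit. In bins of 20 bp, between 11.7% and 15.6% of the R1-only regions away from starts held CAGCTG or CATCTG in each bin centred from -40 to 120 bp, and the share fell to 2.12% at 200 bp. In the windows from 250 to 350 bp left and right of the summit, the pair lay in 14.9% and 15.6% of them. Other shared R1 peaks had 14.5% and 13.9% there. The span with E-boxes reached farther to the right of the deposited summits than to the left, in genome coordinates. A window of 50 bp on either side hence left out part of it, and with 100 bp the share over all R1-only regions rose from 45.8% to 63.4%, against 26.6% of other shared R1 peaks.

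**Figure D3:**
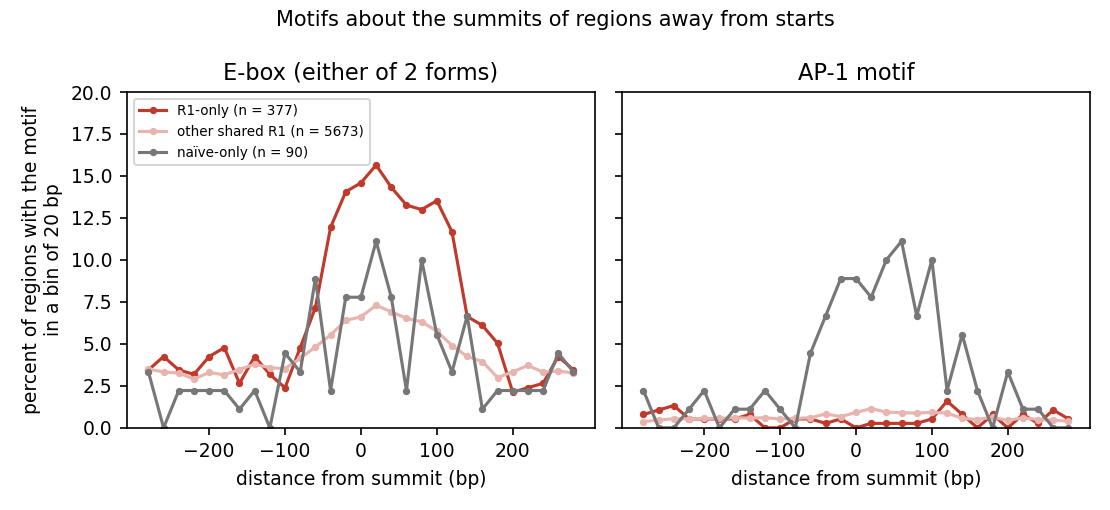
Percent of regions away from starts with a match in each bin of 20 bp, by distance from the summit in bp, for an E-box of either form, left, and the AP-1 motif, right. R1-only regions reach 15.6% for the E-box at 20 bp and stay below 2% for AP-1, while naïve-only regions, of which there are 90, carry AP-1 in up to 11.1% per bin.

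AP-1 motifs were few in R1-only regions and in other R1 peaks. TGANTCA lay in 8 of 511 R1-only regions, or 1.57% (0.795 to 3.06), and in 2.12% of other shared R1 peaks, a value within that interval. Near starts it lay in 3 of 134 R1-only regions, or 2.24%, against 1.14%. Away from starts it lay in 5 of 377, or 1.33% (0.568 to 3.07), against 4.07%, a value outside that interval. It lay in 13.7% of shared naïve peaks and in 9.15% of shared R2 peaks away from starts. Naïve-only regions held it in 39 of 110, or 35.5% (27.1 to 44.7), and R2-only regions away from starts in 2.48%. For CAGCTG or CATCTG over all regions, the shares were 45.8% in R1-only and 30.0% in naïve-only regions. As above, these differences were not tested.

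Of the 24 motifs searched, SP/KLF (GGGCGG) lay in 15.7% of R1-only regions against 41.0% of other shared R1 peaks, and in 9.02% against 18.5% away from starts. CTCF (CNAGNGGGC) lay in 3.71% away from starts against 8.23%, TEAD (GGAATG) in 4.51% against 6.91%, and TFAP2 (GCCNNNGGC) in 7.43% against 11.2%. The site of GATA family factors, which reads AGATAA, lay in 2.92% against 1.55%. RUNX (TGTGGT) at 5.31% against 5.52%, SOX (ACAATG) at 1.59% against 1.78%, FOX (TGTTTAC) at 0.531% against 0.582% and CREB (TGACGTCA) at 0.265% against 0.300% were close to the other shared peaks. NFI (TTGGC) lay in 22.3% against 17.8%, and NFY (CCAAT) in 11.9% against 8.71%. The others were ETS (CCGGAAG), NRF1 (GCATGCGC), YY1 (AAGATGGC), C/EBP (TTGCNNAA), STAT (TTCNNNGAA), MEF2 (TATTTNTAG), OCT (ATGCAAAT) and the nuclear receptor site AGGTCA, each in under 4% of the regions away from starts. A match here says only that the letters are present.

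R1-only regions lay mostly away from promoters. Their summit was within 1000 bp of an annotated start in 134 cases, or 26.2% (22.6 to 30.2), against 66.6% of other shared R1 peaks, 18.2% of naïve-only and 9.02% of R2-only regions. Those 134 starts belonged to protein-coding genes in 95 cases and to lncRNAs in 31. Introns held 234 regions, exons away from starts 16, and 127 were intergenic. Of shared R1 peaks away from starts, 6.23% were R1-only (377 of 6050), against 1.17% near starts (134 of 11436). The median distance to a protein-coding start was 17.9 kb, and 105 regions, or 20.5%, lay over 100 kb away, against 4.87% of other shared R1 peaks.

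**Figure D4:**
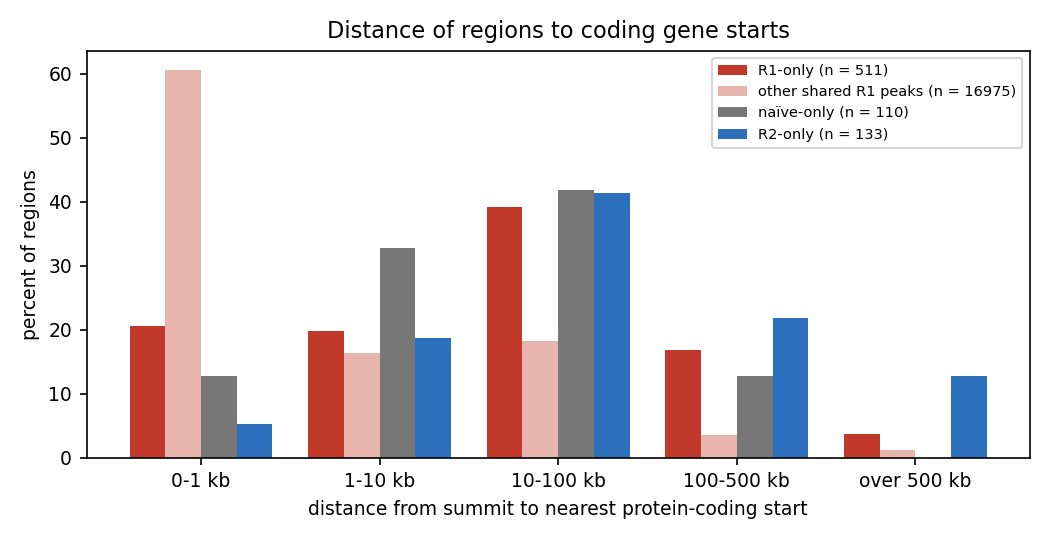
Percent of regions by distance from the summit to the nearest protein-coding start, in 5 classes, for R1-only, other shared R1, naïve-only and R2-only regions. Other shared R1 peaks, which were not matched for rank, have 60.6% within 1 kb, while R1-only regions have 20.5% there and 39.1% at 10 to 100 kb.

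The regions had a smaller median width than the other shared R1 peaks, which were not matched for rank. It was 662 bp, from 225 to 8455 bp, against 1563 bp for other shared R1 peaks. Naïve-only regions had a median of 430 bp and R2-only regions 206 bp, close to the extension of 200 bp that was used for calling. Median GC content within 250 bp of the summit was 52.3%, against 64.5% in other shared R1 peaks, and 50.1% against 59.5% away from starts.

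By chromosome, the regions were most numerous on chromosomes 2, 4 and 7, with 64, 56 and 38. Chromosome 2 held 12.5% of R1-only regions against 7.18% of shared R1 peaks, and chromosome 4 held 11.0% against 4.80%. Relative to the shared R1 peaks of the same chromosome, 7.22% were R1-only on chromosome 18 (4.67 to 11.0), 6.67% on chromosome 4 (5.18 to 8.57) and 24 of 343 on chromosome 13 (interval 4.75% to 10.2%). At the other end were chromosome 16 with 0.456% (0.155 to 1.33), chromosome 14 with 0.468% (0.129 to 1.69) and chromosome 19 with 0.725%. Chromosome 1 had 29 regions, 5.68% of R1-only regions against 11.7% of shared R1 peaks. The order of tied peaks by chromosome name bears on these counts. With all ties inside, chromosome 7 had 27 regions in place of 38, chromosome 9 had 6 in place of 12 and chromosome 22 had 9 in place of 19, so those counts depend on the tie order. Chromosomes 2 and 4 then had 52 and 48, chromosome 18 had 19 of 266 shared R1 peaks, and chromosome 13 again had 24 of 343.

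Part of this order remained away from starts, where promoters do not enter. There the R1-only share was 17.4% on chromosome 18, 15.2% on chromosome 4, 12.5% on chromosome 2, 12.2% on chromosome 6 and 10.6% on chromosome 13, against 1.10% on chromosome 14, 1.30% on chromosome 16 and 1.57% on chromosome 17. With all ties inside these shares were 16.9%, 12.6%, 10.7%, 10.6% and 10.6%, and then 1.10%, 1.30% and 1.13%. Chromosomes 13, 20 and 22 held 24, 32 and 19 of the 511 R1-only regions, the last 9 with all ties inside. They held 0 of the 110 naïve-only regions, and 6, 7 and 1 of the 133 R2-only regions. Chromosome 6 held 29, 3 and 12. Chromosomes 13, 20 and 22 held 1.96%, 4.82% and 3.19% of shared R1 peaks, and the naïve-only set is small. The counts of 0 are therefore not read as a difference. Naïve-only regions were most numerous on chromosomes 1 and 19, with 19 and 15. The number of copies of each chromosome in these cells was not measured here, and its part in these counts was not tested.

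**Figure D5:**
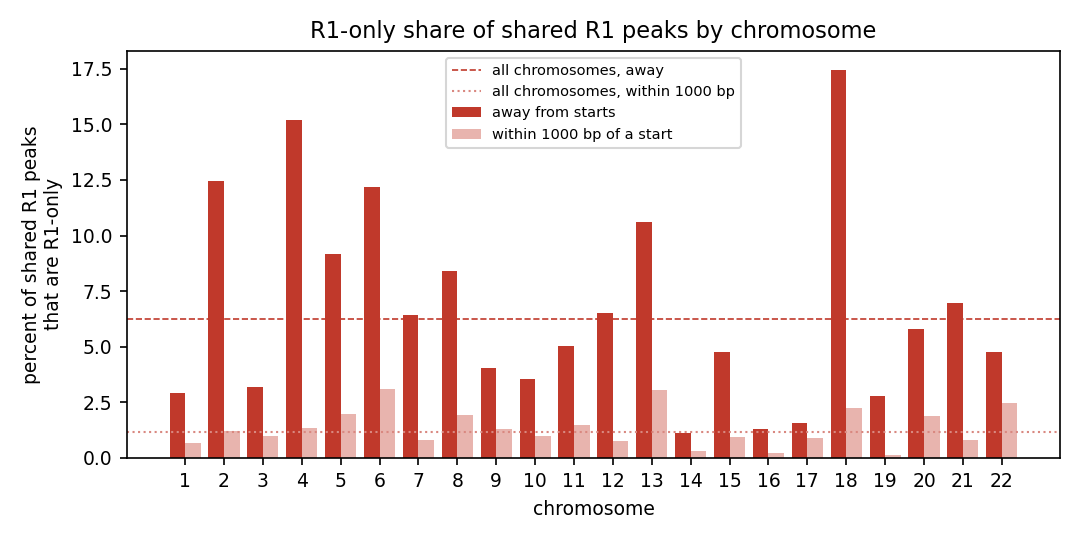
Percent of the shared R1 peaks of each chromosome that were R1-only, for peaks away from starts and for peaks within 1000 bp of a start, with dashed and dotted lines at the values for all chromosomes, 6.23% and 1.17%. With tied peaks in the order of the ranking, chromosomes 18, 4, 2, 6 and 13 are highest away from starts, and chromosomes 14, 16 and 17 lowest.

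The regions were spread along the chromosomes: 203 of the 294 bins of 10 Mb with a shared R1 peak held at least 1. The bin with the most was at 20 to 30 Mb of chromosome 7, with 10 of 84 shared R1 peaks. With gaps of at most 1 Mb, 80 regions formed 23 clusters of 3 or more. The largest clusters had 5 regions each. One ran from 23980940 to 25533316 on chromosome 20, by NINL, ABHD12, CST7 and GGTLC1, where 5 of 19 shared R1 peaks were R1-only. On chromosome 7, one ran from 24910129 to 25853067 near NFE2L3, NPVF and OSBPL3, with 5 of 13. Another ran from 29957616 to 31302679 near SCRN1, ADCYAP1R1 and NEUROD6, with 5 of 38. NEUROD6 encodes a neuronal helix-loop-helix factor, and ADCYAP1R1 the receptor of the neuropeptide PACAP. A cluster of 4 by HOXA2, JAZF1 and CREB5 lay between them. The other clusters of 4 lay near KCNQ3, a neuronal potassium channel, TG, TMEM71 and NDRG1 with 4 of 10 shared R1 peaks, near GLI3, a Hedgehog pathway factor, and SUGCT with 4 of 9, near MEX3C, MRO and SKA1 with 4 of 12, and near BCL2L1, HM13, XKR7 and DEFB115 with 4 of 45. The R1-only share of these clusters thus varied widely.

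In some clusters every shared R1 peak was R1-only. This was so for the 3 regions upstream of SOX11, a transcription factor of neuronal development, between 4930691 and 5410394 on chromosome 2. Their heights were 16.2 and 13.8, 14.1 and 13.6, and 11.0 and 10.9 in the R1 libraries, and 1 of them had another peak, at 10.0 in the second R2 library. They lay 282314, 376624 and 761569 bp from the SOX11 start, and all 3 had CATCTG at the summit. It was also so for the 3 regions at MPPED2 and the 3 at MYO6 and IMPG1. A cluster of 3 near FRG1 and FRG2, at the end of chromosome 4, lies among near-identical gene copies, so that its reads may be placed uncertainly.

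The start nearest to a region belonged to 460 protein-coding genes, 2.41% of the 19103 on these chromosomes, and 49 of them were nearest to at least 2 regions. At least 2 regions lay within the body, or the 5000 bp before the start, of 21 genes. These were AK4, BMP7, C4orf50, DYSF, HECW1, INA, JAZF1, KLHL29, MAML3, MEGF10, MPPED2, NINL, NT5C2, PID1, RALGAPA2, SIPA1L3, STX3, TBC1D4, TENM3, THSD7B and TMEM182. INA, a neuronal intermediate filament, and the adjoining NT5C2 share the same 2 regions. At MAML3, a coactivator of Notch, 2 of 13 shared R1 peaks were R1-only, with heights of 17.1 and 14.9 at the first and 14.7 and 13.4 at the second. At BMP7, a secreted growth factor, 2 of 6 were R1-only, the stronger with heights of 11.3 and 11.4 in R1 and 5.25 and 7.40 in naïve. At AK4, INA, MEGF10, MPPED2, PID1 and THSD7B both shared R1 peaks were R1-only.

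Of 13 lists of genes of interest, 8 genes had their start nearest to an R1-only region. Over all 19103 protein-coding genes on these chromosomes the share was 2.41%. Hits of 1 or 2 in short lists are therefore not read as a result about those lists. Nearest to any shared R1 peak were 9 of 11 adrenergic genes, 14 of 17 growth factor receptors and 11 of 12 BCL2 family genes. HAND2, a helix-loop-helix factor of the adrenergic state of neuroblastoma, was the 1 of 11 adrenergic genes, with a region 117836 bp upstream. Its heights were 19.4 and 14.4 in R1 and 7.40 in the second naïve library. ALK, a receptor tyrosine kinase and neuroblastoma oncogene, held a region in an intron with heights of 15.6 and 11.8 in R1 and 4.37 in the first naïve library. IGF1R, a growth factor receptor, had one at 13.7 and 15.3 in R1 with no other peak. These were 2 of 17 growth factor receptors.

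From the BCL2 family, 2 of 12 genes were found. The region at BCL2, an apoptosis inhibitor, had heights of 13.5 and 12.0 in R1 and no other peak, and that at BCL2L1, its relative, had 12.0 and 10.9 in R1 and 5.68 in the first naïve library. TEAD1, a factor of the TEAD family through which YAP acts, was the 1 of 12 YAP/TEAD genes, with 13.5 and 14.4 in R1 alone. SPARC, a matrix protein, was 1 of 24 matrix and adhesion genes, and HOXA2, a developmental homeobox gene, was 1 of 39 HOX genes. None of these 8 regions lay within 1000 bp of the start of the listed gene. The lists of 14 mesenchymal neuroblastoma genes, 12 AP-1 genes, 8 drug efflux genes and 11 genes of indisulam action had 0, as had those of fibroblasts, endothelium and blood cells. Of the 4 lists with sizes given, 9, 11, 4 and 7 genes were nearest to a shared R1 peak. With a share of 2.41% over all protein-coding genes, 0 in lists this short is not read as a difference. Accessibility near a gene does not show its expression.

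Markers of other cell types were covered to a similar extent in every library. A top 20000 peak stood at the start of 7 and 8 of 11 adrenergic genes in R1, 7 and 6 in naïve, and 7 and 7 in R2. For 14 mesenchymal genes the counts were 9 and 9 in R1, 8 and 6 in naïve, and 8 and 9 in R2. For the 9 fibroblast or stroma genes the counts were 3 and 4 in R1, 3 and 3 in naïve, and 4 and 2 in R2. The 5 endothelial genes had 0 in every library, and the 6 blood cell genes had 1 in the first naïve library and 0 in the others. The share of mouse host cells was not measured here, and its part in the regions was not tested.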

How the data were processed

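For each library the authors used BWA for alignment, Picard to mark duplicates and samtools to filter reads, with read ends moved by +4 or -5 bp. Their MACS2 calls had a q limit of 0.01, tags extended to 200 bp and a shift set to 100 bp. Each deposited list gives per peak the fold enrichment (a ratio over background), −log10 p-value and −log10 q-value. The methods name hg19, but the peaks extend to within 9929 bp of hg38 chromosome ends, so hg38 and GENCODE release 44 served as reference.

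Words in the names of the deposited lists seem to name a fragment class and a filter, and no source used here explains them, so which fragments the pileups count is not known.

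Peaks were ranked within each library by −log10 p, with ties broken by fold enrichment, chromosome name in alphabetical order and position. Overlap meant at least 1 shared base. Pileup and background rate were recovered from fold and p, since each fold is a pileup plus 1 over a rate plus 1. Recovered pileups were whole within 0.000281 tags. Both strands were searched for motifs, up to 50 bp from each summit. The overlap, rule and rate functions were tested on simulated data. The members, motifs and gene lists were chosen with earlier results of these data known. Regions named singly were the 10 best by mean R1 rank, the 10 best at protein-coding starts, genes with at least 2 regions, listed genes, clusters of 3 or more, and those at the thresholds. Alternatives changed ranks, overlap, source library, q, windows and libraries. Analyses used Python 3.11.15, pandas 2.3.3, SciPy 1.17.1 and pysam 0.24.0. BEDTools 2.31.1 served the self-test.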

Additional observations from a re-analysis of the deposited data

Results flagged for a closer look

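Chromosome X was outside the rule. The same ranks and overlaps applied to it gave 14 R1-only regions, 6.14% of its 228 shared R1 peaks. The naïve-only count was 0 of 69 and the R2-only count 5 of 108, or 4.63%. The result is listed because these peaks enter no comparison above.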

How the results depend on the processing

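Shares were compared with the 95% interval of the main value and counts with 1.5 times it. Taking regions from the second R1 library, a −log10 q of at least 5 and counting all tied peaks inside gave 526, 532 and 437 regions and kept the other shares within their intervals. Ranking by fold gave the same 511, as it must, since fold and p both follow the pileup within a library. The tie rule and the E-box pair were added after seeing the data, and counting ties inside took chromosome 22 from 19 regions to 9. No paired analysis was possible because the results come from no test.

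The counts and shares moved with the rank thresholds. In the order of regions, percent near a start, percent on chromosome 13 and percent with an AP-1 motif, the values were 16, 37.5, 0 and 6.25 with the top 10000 of the R1 lists, and the E-box pair lay in 37.5%. With the top 30000 the regions numbered 1903 and the E-box share was 39.4%. With the top 20000 of the other lists there were 2262 regions, 41.6% near a start, 2.92% on chromosome 13 and 31.5% with the E-box pair. When no peak of any rank was allowed there were 234, 16.2% near a start, 8.12% on chromosome 13 and 51.3% with the pair, which is the same value as for the regions with no other peak. With overlap of at least 0.5 of each region there were 6595 regions, 60.0% near a start, 2.70% on chromosome 13 and 20.4% with the pair, and 6394 had no peak in the other lists. Wide peaks that cover less of each other pass that rule.

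The share near a start was 43.8% within 5000 bp and 20.5% for protein-coding starts. With windows of 25 bp the AP-1 share was 0.391% and the E-box share 26.0%, and with 100 bp the E-box share was 63.4%. Leaving out each library in turn gave 580 to 901 regions and 278 to 473 with no other peak. It gave 25.6% to 32.1% near a start, 4.11% to 5.01% on chromosome 13, 1.34% to 2.11% with AP-1 and 41.3% to 46.0% with the pair. The R2 libraries had the least depth, and leaving out the first or the second gave 791 and 818 regions, against 632 and 580 without a naïve library.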

Other observations

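The starts of HAND2 and TWIST1, listed helix-loop-helix genes, had a peak in all 6 libraries. At HAND2 the best rank was 9723 and 8399 in R1, 7391 and 12591 in naïve, and 10766 and 19204 in R2. At TWIST1 it was 6735 and 7480 in R1, 14967 and 14585 in naïve, and 8284 and 13409 in R2. A smaller rank is a stronger peak within its list. The lists differ in length and depth, so ranks were not compared between libraries. These genes were looked at after the E-box values were seen.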
